A study of Mus musculus with 6 samples.

Results

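The mitochondrial carriers of the SLC25 family were followed in 3T3-L1 cells, mouse fibroblasts widely used because they can become fat cells in culture, after chronic intermittent hypoxia (CIH), in which oxygen is lowered again and again. The members were the protein-coding genes of GENCODE mouse release 21 that are present in all 6 files and whose symbol starts with Slc25a, without Slc25a1 and Slc25a20. There were 45 of them among 21769 gene IDs. The 6 libraries were 3 of wild-type (WT) cells given CIH and 3 of WT control cells. All cells of both groups carried the same differentiation protocol, with 10% serum, induction with insulin and then 0.1 µM insulin until day 8. The sources used here give neither the oxygen levels nor the length of a cycle. No label says that the libraries came from separate cultures, and p-values therefore measure only how these libraries vary, which may be technical variation.

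SLC25 carriers are small proteins, mostly of the inner mitochondrial membrane, that swap or import solutes the membrane does not let through. They move ADP and ATP, phosphate, metabolites of the citric acid cycle, amino acids, cofactors, nucleotides and iron, so that they link the chemistry of the matrix to that of the cytosol. Adipocytes use this traffic for respiration and for supplying carbon and reducing power to fat synthesis. Carriers are made in the cytosol and reach the inner membrane through the TOM receptors and the TIM22 pathway.

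Expression is given in FPKM, that is, sequenced fragments per kilobase, corrected for library size. CIH 1 and 2 and control 1 and 2 came as gene tables, whose steps correspond to between 25733500 and 27991300 fragments. CIH 3 and control 3 came as transcript tables of unknown depth, whose repeated entries were summed per gene. In the main comparisons levels were therefore compared only within a kind of table. The filter on low values used the mean of all 6 libraries, and fits of all 6 libraries were run as checks. The replicate 3 libraries also stood apart in their cell type markers. The 14 white adipocyte markers summed to 9717 and 8689 FPKM in CIH 1 and 2, against 9960 and 10378 in control 1 and 2, but to 781 FPKM in CIH 3, against 33418 in control 3, with none of the 14 at 0 in any library. The 9 preadipocyte or fibroblast markers summed to 554 and 549 FPKM in CIH 1 and 2, against 347 and 366 in control 1 and 2, and to 4788 FPKM in CIH 3, against 810 in control 3. Macrophage markers (6) summed to at most 4.95 FPKM in any library, with Adgre1 at 0 throughout, and endothelial markers (4) to at most 0.719. Epithelial markers (4, Epcam at 0 throughout) summed to 0.415 and 0.245 FPKM in CIH 1 and 2, against 8.71 and 9.49 in control 1 and 2. Transcripts encoded by mitochondrial DNA took 15.5% and 16.3% of FPKM in CIH 1 and 2, against 14.2% and 11.2% in control 1 and 2, and 22.4% in CIH 3, against 43.7% in control 3. For these reasons replicates 1 and 2 were compared as 2 libraries against 2, and CIH 3 was set against control 3 on its own. The part of the markers in the results that follow was not tested.

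The family was dominated by a few carriers. Summed over the 45 members, expression was 2109.9 and 1902 FPKM in CIH 1 and 2, against 1601 and 1699 in control 1 and 2, and 1107 in CIH 3, against 2249 in control 3. The 6 members with the highest control levels made up 85.3% and 83.8% of this sum in CIH 1 and 2, against 78.7% and 80.3% in control 1 and 2, and 65.8% in CIH 3, against 77.1% in control 3. In every library the highest member was Slc25a5, which encodes ANT2, an adenine nucleotide translocase that exchanges matrix ATP for cytosolic ADP. At the other end, 10 members stayed under a mean of 1 FPKM over the 6 libraries and were not tested.

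**Figure D1:**
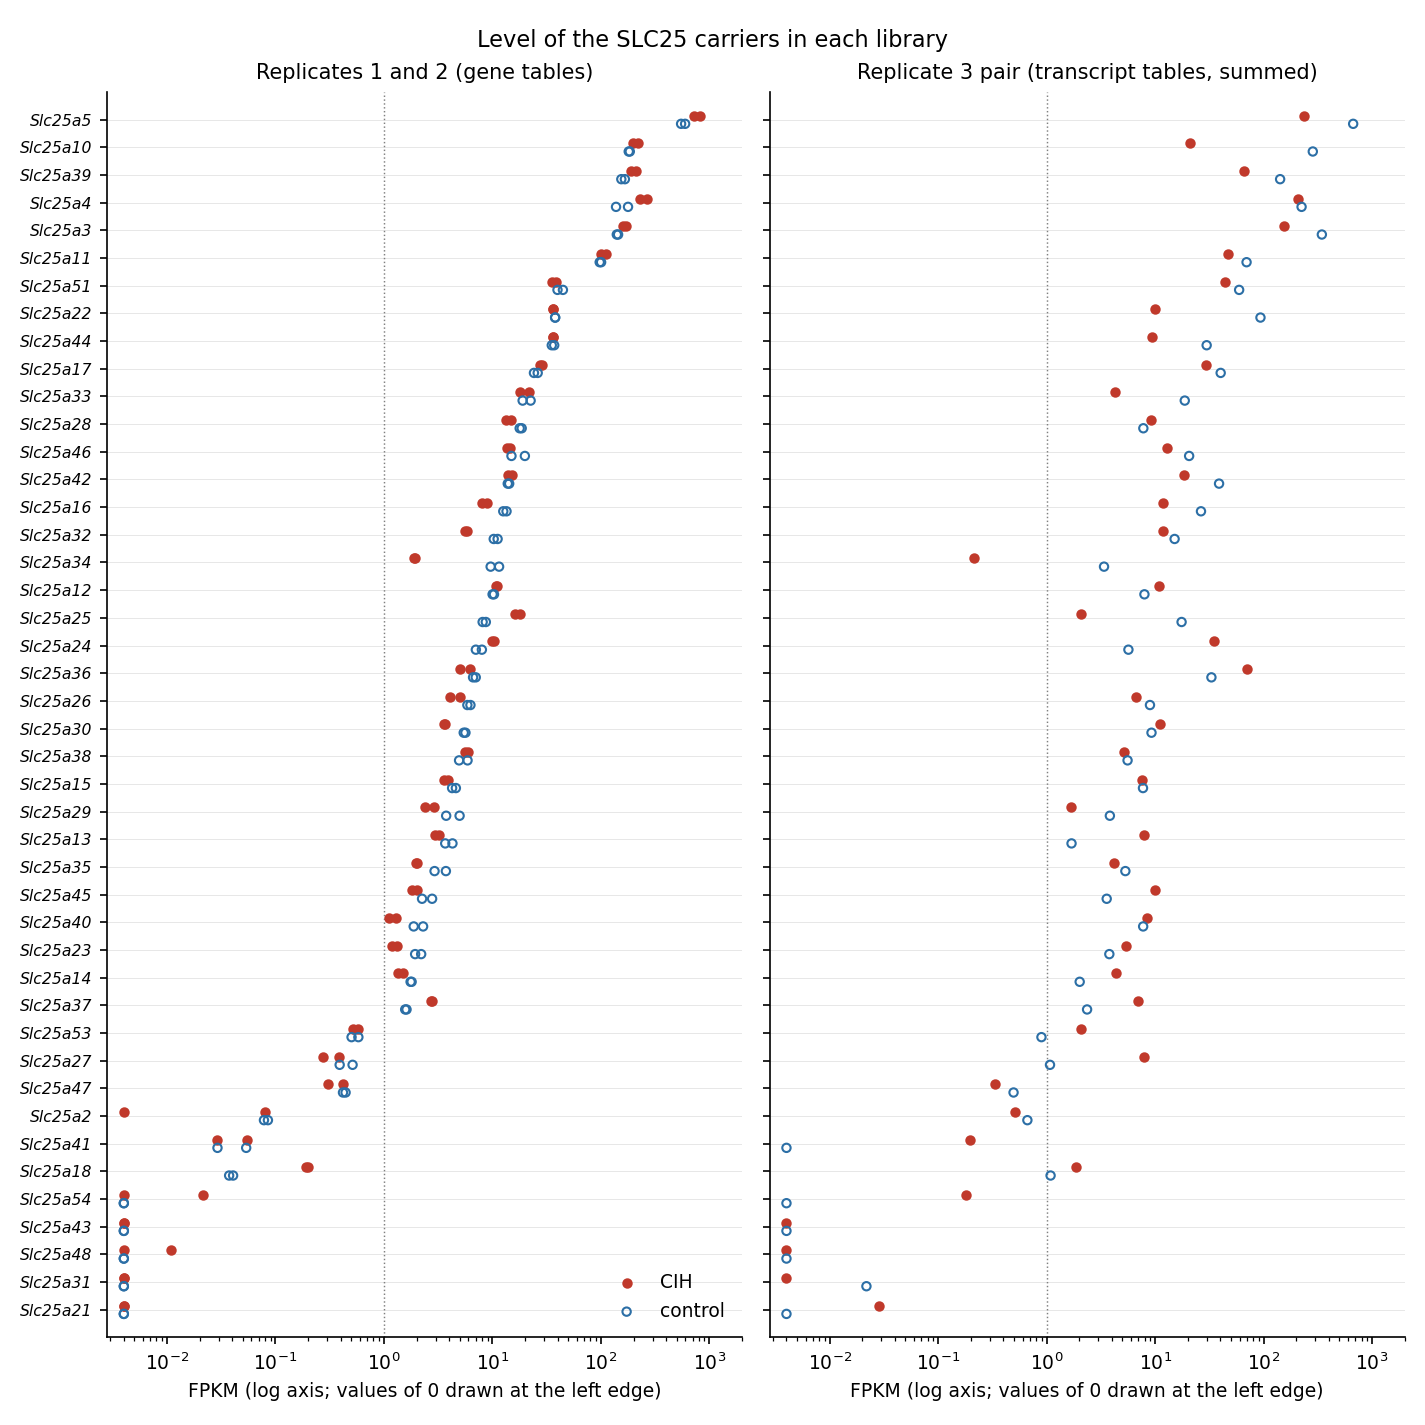
FPKM of the SLC25 carriers on log axes, with a filled point for each CIH library and an open point for each control (left, replicates 1 and 2 from gene tables; right, replicate 3 from transcript tables; values of 0 at the left edge; dotted line, 1 FPKM). Slc25a5, Slc25a10, Slc25a39, Slc25a4, Slc25a3 and Slc25a11 lie above the rest in control 1 and 2, and the replicate 3 libraries lie far apart for many members.

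In replicates 1 and 2, 14 of the 35 tested carriers changed, 5 higher and 9 lower in CIH than in control. That is 40% of the carriers, beside 39.1% of all 10976 genes tested. By direction it is 14.3% higher, beside 18.2% of all genes, and 25.7% lower, beside 20.9%. Scaled to a common total, 3 rose and 13 fell, beside 1368 and 3149 of all 10976 genes. The median log2 change of the carriers was -0.13, against -0.01 over all genes. Values are on the log2(FPKM + 1) scale, which understates the change of low genes, and calls are at an adjusted p under 0.05 by limma with Benjamini-Hochberg adjustment. In 30 of the 35 carriers (85.7%, beside 74% of all genes) the CIH libraries did not overlap the controls, 11 with CIH above and 19 with CIH below. The calls rest on few libraries: without CIH 1 there were 2 higher and 2 lower, without CIH 2 there were 2 and 5, without control 1 there were 3 and 9, and without control 2 there were 3 and 8. The 4 carriers called in all 4 of these fits were Slc25a25 and Slc25a37, which rose, and Slc25a34 and Slc25a32, which fell. Over all genes, too, fewer were called in each of these fits than with all 4 libraries. Markers moved in the same libraries. Of the 13 tested white adipocyte markers 1 was called higher, 6 lower and 6 not called, beside 18.2% of all genes higher and 20.9% lower. Cd36 was the higher one (log2 change 0.61). The lower ones were Cfd (-3.47), Retn (-3.00), Slc2a4 (-1.88), Pparg (-0.91), Lipe (-0.42) and Cebpa (-0.35). Adipoq, Fabp4, Plin1, Cidec, Lpl and Pnpla2 were not called (-0.20 to 0.21). Of the 8 tested preadipocyte or fibroblast markers 6 were called higher and 2 lower, beside the same shares of all genes. As these are bulk libraries, fewer cells of a type and less RNA per cell cannot be told apart.

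**Figure D2:**
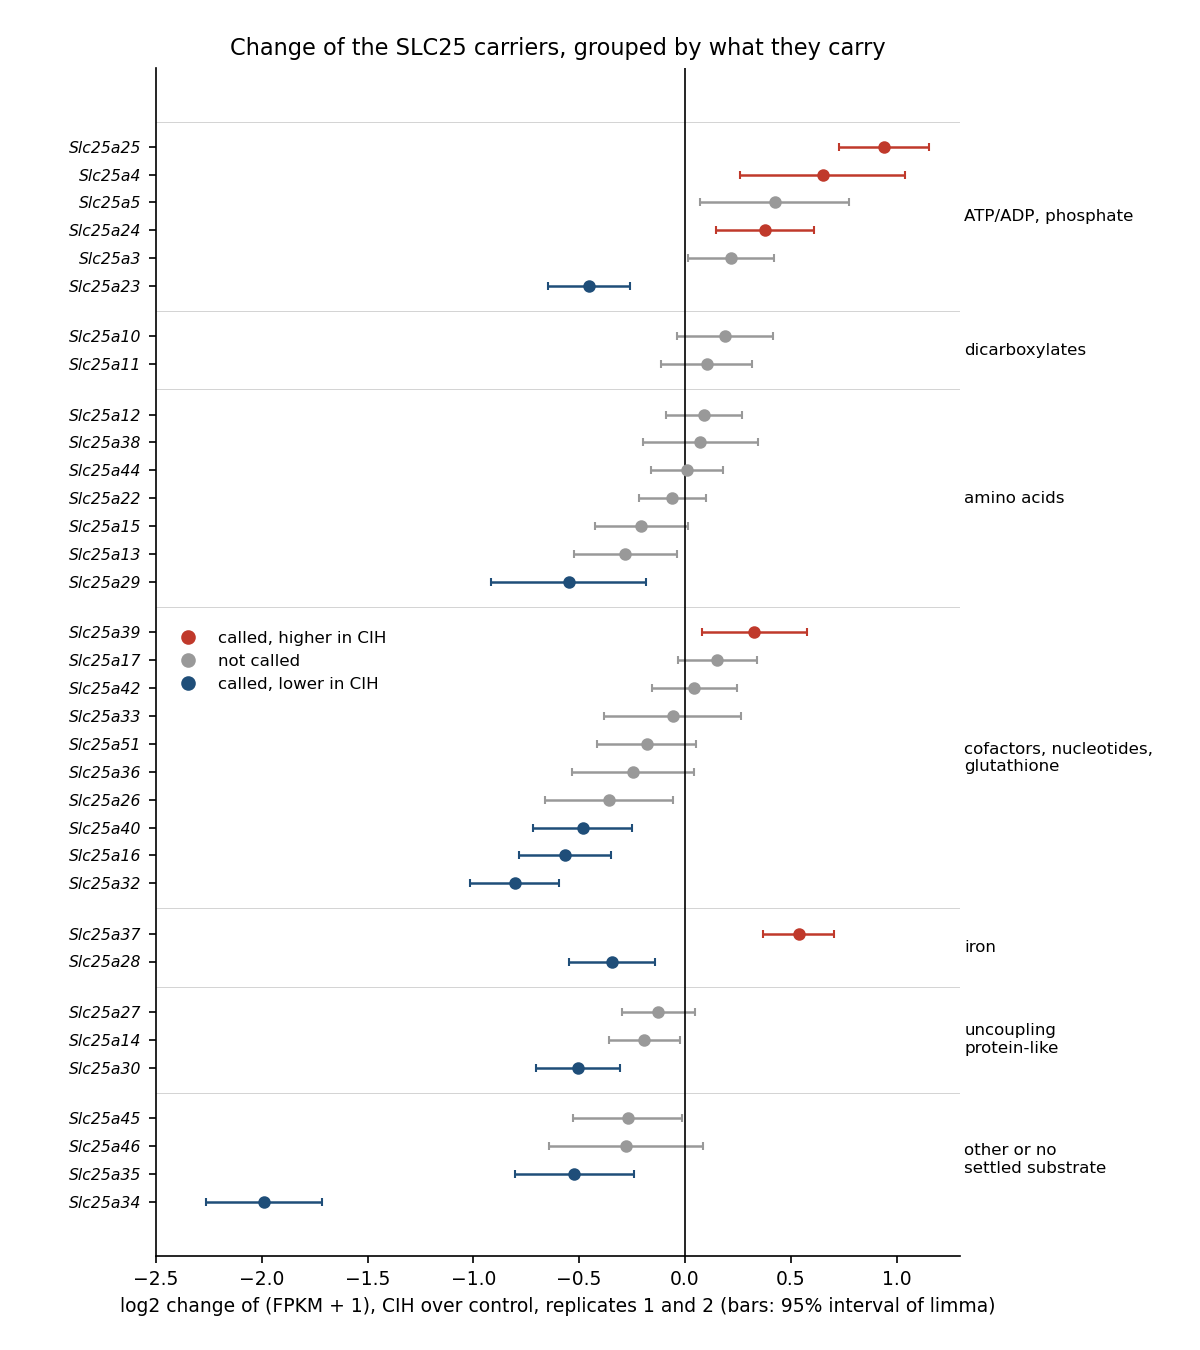
Log2 change in FPKM + 1, CIH over control in replicates 1 and 2, for the tested carriers shown, with the 95% interval; colours mark carriers called higher, called lower or not called. Slc25a25 lies at the upper end (0.94) and Slc25a34 far below all others (-1.99).

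The largest change was in Slc25a34, a carrier whose substrate is not settled. It lies at chr4:141618824-141623821 on the minus strand (GRCm38). It had 1.88 and 1.92 FPKM in CIH 1 and 2, against 9.62 and 11.5 FPKM in control 1 and 2. CIH 3 had 0.213 FPKM, against 3.38 in control 3. CIH was thus below control within each kind of table. The means were 1.90 ± 0.0346 FPKM in CIH and 10.6 ± 1.33 FPKM in control (SD, n = 2 each), a log2 change of -1.99 (SE 0.106, adjusted p = 0.000846 by limma). These values rest on 131 and 141 fragments in CIH 1 and 2, against 661 and 860 in control 1 and 2. Leaving out each library in turn gave adjusted p up to 0.0111. On the scale of FPKM + 1 it was the only carrier with a change of 2-fold or more in replicates 1 and 2, a size that 3.98% of all genes reached.

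Slc25a25 had the largest upward change. It encodes SCaMC-2, a calcium-regulated carrier that exchanges ATP-Mg for phosphate. Its gene lies at chr2:32414487-32451445 on the minus strand. It had 17.8 and 16.3 FPKM in CIH 1 and 2, against 8.12 and 8.68 FPKM in control 1 and 2, with no overlap. The log2 change was 0.94 (SE 0.0824, adjusted p = 0.00241 by limma), and 1.01 with a pseudocount of 0.1 FPKM in place of 1. The replicate 3 pair ran the other way, with 2.09 FPKM in CIH 3 against 17.5 FPKM in control 3.

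The promoter windows of these 2 genes are shown because they carried the largest change in each direction. Each runs from 250 bases before to 50 bases after a start site annotated by RefSeq (GRCm38.p6), and is written 5′ to 3′ on the gene's strand. The Slc25a34 window is chr4:141623785-141624084, minus strand, and its capitals mark a nuclear receptor half-site with extension (AAGGTCA, here on the opposite strand). The Slc25a25 window is chr2:32424017-32424316, minus strand, and its capitals mark a cyclic AMP response element (TGACGTCA), while the windows at the other 2 start sites of this gene held no match.
Slc25a34: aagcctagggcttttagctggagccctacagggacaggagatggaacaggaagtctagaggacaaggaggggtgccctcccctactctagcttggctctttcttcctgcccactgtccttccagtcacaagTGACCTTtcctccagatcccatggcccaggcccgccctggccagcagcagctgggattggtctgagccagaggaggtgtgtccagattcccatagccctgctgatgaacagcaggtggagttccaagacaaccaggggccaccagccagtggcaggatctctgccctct
Slc25a25: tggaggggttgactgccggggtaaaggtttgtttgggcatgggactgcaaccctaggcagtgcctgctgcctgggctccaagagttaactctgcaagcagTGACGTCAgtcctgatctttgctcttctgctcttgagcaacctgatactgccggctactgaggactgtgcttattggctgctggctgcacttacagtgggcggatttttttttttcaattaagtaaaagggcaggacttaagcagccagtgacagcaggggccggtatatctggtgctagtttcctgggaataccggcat
Both strands of all windows were searched for 4 motifs, and a match describes letters, not a bound site. Of 34 carriers with a window, Slc25a34 alone (2.94%) held AAGGTCA, beside 5.38% of 27025 genes. Slc25a25 and Slc25a36 (5.88%) held TGACGTCA, beside 2.03%. The hypoxia response element core (ACGTG or GCGTG) was in 20 of the 34 (58.8%), beside 46.7% of genes, and in neither window printed here. The binding site of NRF1, searched as its palindrome, was in 0 of the 34, beside 1.07% of genes.

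Among the carriers of adenine nucleotides and phosphate, 6 of 9 were tested, and 3 rose, 1 fell and 2 were not called, with a median log2 change of 0.40, beside 18.2% of all genes higher and 20.9% lower. Slc25a4 (chr8:46206797-46211284) encodes ANT1, the translocase known from heart and muscle. It had 263 and 230.2 FPKM in CIH 1 and 2, against 138 and 178 in control 1 and 2. Its log2 change was 0.65 (SE 0.152, adjusted p = 0.0273 by limma). The groups did not overlap, but the call was lost without control 1 (adjusted p = 0.0804), without CIH 1 (0.117) and without CIH 2 (0.0597). Slc25a5 (chrX:36795651-36798807) had 825 and 714 FPKM in CIH 1 and 2, against 548 and 597 in control 1 and 2. Its log2 change of 0.42 (95% interval 0.07 to 0.78) was not called (adjusted p = 0.0624 by limma), though it was with scaling by the upper quartile (0.0299). Of its 50-base words, 33.8% also occur in other genes, 21.1% in the pseudogene Gm5560, so its level is uncertain. The ratio of Slc25a5 to Slc25a4 was 3.14 and 3.10 in CIH 1 and 2, against 3.98 and 3.36 in control 1 and 2. Slc25a3 (chr10:91116574-91124059), the phosphate carrier that feeds ATP synthase, had 170.1 and 160.4 FPKM in CIH 1 and 2, against 144 and 139.9 in control 1 and 2. Its log2 change was 0.22 (95% interval 0.02 to 0.42, adjusted p = 0.0816 by limma), and scaling by the upper quartile brought the adjusted p to 0.0356.

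The 3 calcium-regulated ATP-Mg/phosphate carriers did not move together. Slc25a24 (chr3:109123149-109168457), which encodes SCaMC-1, had 9.83 and 10.3 FPKM in CIH 1 and 2, against 7.98 and 7.03 in control 1 and 2. It rose with Slc25a25, by a log2 change of 0.38 (SE 0.0900, adjusted p = 0.0286 by limma). Slc25a23 (chr17:57043711-57059863), which encodes SCaMC-3, had 1.18 and 1.31 FPKM in CIH 1 and 2, against 2.20 and 1.94 in control 1 and 2. It fell by 0.45 on the log2 scale (SE 0.0754, adjusted p = 0.0111 by limma). The groups did not overlap in either gene. The ratio of Slc25a25 to Slc25a23 was 15.1 and 12.4 in CIH 1 and 2, against 3.69 and 4.48 in control 1 and 2. In replicate 3 this ratio ran the other way, with 0.387 in CIH 3 and 4.63 in control 3. The call of Slc25a24 was lost without control 2 (adjusted p = 0.0783), CIH 1 (0.108) or CIH 2 (0.127), and that of Slc25a23 without CIH 1 (0.0679).

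Iron carriers were also called in opposite directions. Slc25a37 and Slc25a28 encode mitoferrin 1 and mitoferrin 2, which import iron for heme and iron-sulfur clusters. Slc25a37 (chr14:69241848-69285112) had 2.80 and 2.72 FPKM in CIH 1 and 2, against 1.57 and 1.61 in control 1 and 2, and rose by a log2 change of 0.54 (SE 0.0652, adjusted p = 0.00498 by limma). Slc25a28 (chr19:43663801-43674881) had 14.8 and 13.4 FPKM in CIH 1 and 2, against 17.8 and 18.6 in control 1 and 2, and fell by 0.35 on the log2 scale (SE 0.0789, adjusted p = 0.0256 by limma). Neither gene's groups overlapped. The Slc25a28 call was lost without each of control 1, control 2, CIH 1 and CIH 2 (adjusted p = 0.0535, 0.0730, 0.0651 and 0.117). The ratio of Slc25a37 to Slc25a28 was 0.189 and 0.203 in CIH 1 and 2, against 0.0880 and 0.0868 in control 1 and 2.

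Of the 11 carriers of cofactors, nucleotides and glutathione, all tested, 1 rose, 3 fell and 7 were not called, with a median log2 change of -0.18, beside the same shares of all genes (18.2% and 20.9%). Slc25a32 (chr15:39091231-39112716) is known as the mitochondrial folate carrier. It had 5.80 and 5.61 FPKM in CIH 1 and 2, against 11.2 and 10.3 in control 1 and 2. It fell by 0.80 on the log2 scale (SE 0.0813, adjusted p = 0.00322 by limma), with both CIH libraries far below both controls. Slc25a16 (chr10:62920633-62946498), linked to coenzyme A in the matrix, had 8.07 and 8.89 FPKM in CIH 1 and 2, against 13.5 and 12.6 in control 1 and 2. It fell by 0.57 on the log2 scale (SE 0.0848, adjusted p = 0.00833 by limma), and missed the threshold without CIH 1 (0.0538).

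The paralogs Slc25a39 and Slc25a40, which take up glutathione, differed in level and in the direction of their calls. Slc25a39 (chr11:102402985-102407946) had 212 and 190.4 FPKM in CIH 1 and 2, against 154 and 166 in control 1 and 2. Its log2 change was 0.33 (SE 0.0963, adjusted p = 0.0498 by limma), at the edge of the threshold, and the call was lost without each of control 1, control 2, CIH 1 and CIH 2 (0.205, 0.0916, 0.186 and 0.0711). Slc25a40 (chr5:8422850-8454797) had 1.12 and 1.29 FPKM in CIH 1 and 2, against 2.29 and 1.88 in control 1 and 2. It fell by 0.48 on the log2 scale (SE 0.0914, adjusted p = 0.0157 by limma), a call lost without CIH 1 (0.0850). The ratio of Slc25a39 to Slc25a40 was 189 and 148 in CIH 1 and 2, against 67.1 and 88.4 in control 1 and 2. In replicate 3 this ratio ran the other way, with 7.94 in CIH 3 and 18.3 in control 3.

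**Figure D3:**
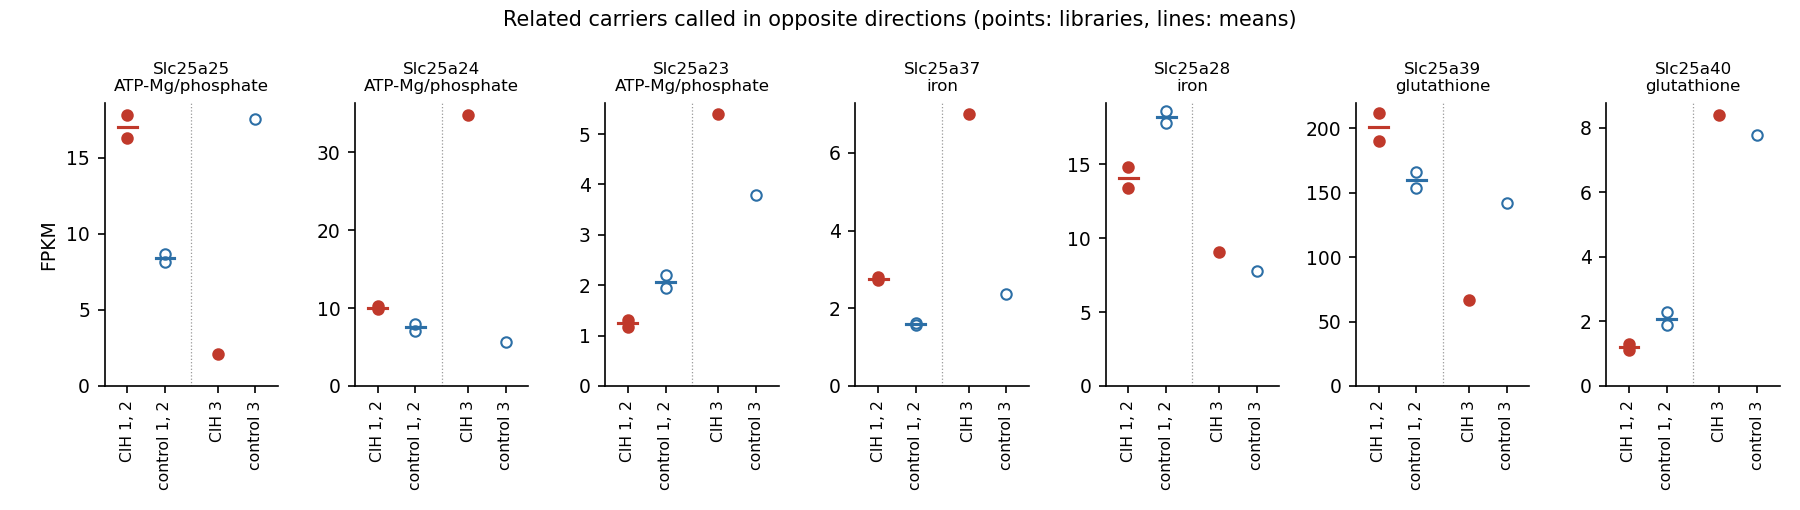
FPKM of related carriers called in opposite directions, by library (points) with the mean of replicates 1 and 2 (lines), on linear axes from 0 that differ between genes: the ATP-Mg/phosphate carriers Slc25a25, Slc25a24 and Slc25a23, the iron carriers Slc25a37 and Slc25a28, and the glutathione carriers Slc25a39 and Slc25a40. In replicates 1 and 2, CIH points lie above control for Slc25a25, Slc25a24, Slc25a37 and Slc25a39 and below it for Slc25a23, Slc25a28 and Slc25a40.

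The not called cofactor carriers ranged in log2 change from -0.36 in Slc25a26, which imports S-adenosylmethionine, to 0.15 in Slc25a17, a peroxisomal carrier. The NAD carrier Slc25a51 had 35.3 and 38.7 FPKM in CIH 1 and 2, against 44.6 and 39.7 in control 1 and 2 (log2 change -0.18, adjusted p = 0.166 by limma).

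Carriers of dicarboxylates had no call. Slc25a10 (chr11:120491840-120499187), which exchanges malate or succinate for phosphate, had 218 and 199 FPKM in CIH 1 and 2, against 180.3 and 184 in control 1 and 2. Its log2 change was 0.19 (95% interval -0.04 to 0.42, adjusted p = 0.144 by limma). Slc25a11 (chr11:70644196-70647479), the oxoglutarate/malate exchanger of the malate-aspartate shuttle, had 112 and 101 FPKM in CIH 1 and 2, against 97.3 and 100.3 in control 1 and 2. Its log2 change was 0.10 (95% interval -0.11 to 0.32, adjusted p = 0.373 by limma), and -0.027 with scaling to a common total. Both CIH libraries were above both controls in each gene, by little.

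Of the 7 tested amino acid carriers, 1 fell and 6 were not called, with a median log2 change of -0.06, beside 20.9% of all genes lower. Slc25a29 (chr12:108825873-108835883), a carrier of basic amino acids, had 2.89 and 2.41 FPKM in CIH 1 and 2, against 3.74 and 4.98 in control 1 and 2. It fell by 0.55 on the log2 scale (SE 0.142, adjusted p = 0.0360 by limma), without overlap, but the call was lost without control 2 (0.0695), CIH 1 (0.0848) or CIH 2 (0.144). Among the others, the glutamate carrier Slc25a22 had a change of -0.06 (95% interval -0.22 to 0.10) and the branched-chain amino acid carrier Slc25a44 one of 0.01 (-0.16 to 0.18). The aspartate/glutamate carriers Slc25a12 and Slc25a13 had changes of 0.09 and -0.28 (adjusted p = 0.351 and 0.0692 by limma).

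In the remaining groups, 1 of the 3 uncoupling protein-like carriers fell. Of the 4 tested members that were outer membrane, other or without a settled substrate, 2 fell, Slc25a34 among them. None rose in either group, beside 18.2% of all genes higher and 20.9% lower. Slc25a30 (chr14:75760117-75787037), an uncoupling protein-like carrier, had 3.61 and 3.60 FPKM in CIH 1 and 2, against 5.64 and 5.43 in control 1 and 2. It fell by 0.50 on the log2 scale (SE 0.0765, adjusted p = 0.00861 by limma), a call lost without CIH 1 (0.0587) or CIH 2 (0.0532). The other uncoupling protein-like carriers, Slc25a14 and Slc25a27, were not called, and Slc25a27 had under 1 FPKM in each library of replicates 1 and 2. Slc25a35 (chr11:68968131-68974365, plus strand), without a settled substrate, had 2.03 and 1.96 FPKM in CIH 1 and 2, against 3.72 and 2.92 in control 1 and 2. It fell by 0.52 on the log2 scale (SE 0.109, adjusted p = 0.0203 by limma), a call lost without CIH 1 (0.0878) or CIH 2 (0.0873). It shares 25.1% of its 50-base words with Rangrf, an overlapping gene on the opposite strand. Rangrf was listed at no more than 0.122 FPKM in these 4 libraries, but at 10.7 FPKM in CIH 3 and 4.86 in control 3. The part of the shared words in the Slc25a35 level was not tested. Slc25a46, an outer membrane protein that acts in mitochondrial shape, had a log2 change of -0.28 and was not called (adjusted p = 0.172 by limma).

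The replicate 3 pair showed another pattern and has no replicate check. Of the 35 carriers, 12 were at least 2-fold lower in CIH 3 than in control 3 (34.3%, beside 11.8% of all genes) and 6 at least 2-fold higher (17.1%, beside 21.8%). Lower by any amount were 23 (65.7%, beside 38% of all genes). The median log2 difference of the carriers was -0.39, against 0.26 over all genes. White adipocyte markers moved with it: all 13 tested were at least 2-fold lower in CIH 3, with a median log2 difference of -5.20, while the 8 tested preadipocyte or fibroblast markers were at least 2-fold higher, with a median of 2.77. Scaled to a common total, which moves the median of all genes to 0.83, the pair had 6 carriers at least 2-fold lower and 7 higher. Of all 10976 genes, 671 were then at least 2-fold lower and 4642 higher. The part of the markers and of the mitochondrial-encoded share in these differences was not tested.

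Most of the abundant carriers were lower in CIH 3. Slc25a10 had 21.2 FPKM in CIH 3 against 284 in control 3, a 12.9-fold lower value on the scale of FPKM + 1. Slc25a22 had 10.1 FPKM against 93.6, 8.54-fold lower, and 10 of its 14 transcript entries were lower and 2 higher. Slc25a5 had 234 FPKM against 669, 2.86-fold lower, and Slc25a3 155 FPKM against 344, 2.22-fold lower. Slc25a4, the translocase that rose in replicates 1 and 2, had 206 FPKM in CIH 3 against 224 in control 3, so that the ratio of Slc25a5 to Slc25a4 was 1.14 in CIH 3 and 2.99 in control 3. Slc25a39 had 66.6 FPKM against 142, Slc25a16 had 11.9 against 26.5, and Slc25a11 had 46.8 against 69.7. Slc25a44 had 9.32 FPKM against 29.9, although its interval in replicates 1 and 2 ran from -0.16 to 0.18 on the log2 scale.

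The carriers at least 2-fold higher in CIH 3 were Slc25a24, Slc25a27, Slc25a13, Slc25a45, Slc25a37 and Slc25a36. Of these, Slc25a27 passed the filter on low values only through replicate 3, where it was high, so its place in this count says nothing. Slc25a24 had 34.8 FPKM in CIH 3 against 5.68 in control 3, a 5.36-fold higher value. Slc25a27 had 7.87 FPKM against 1.07, and Slc25a13 had 7.91 against 1.697. Slc25a37 had 7.002 FPKM against 2.36, 2.38-fold higher, and its ratio to Slc25a28 was 0.771 in CIH 3 and 0.303 in control 3. Slc25a36, a pyrimidine nucleotide carrier, had 70.1 FPKM against 33.0, and took rank 4 in the family in CIH 3 and rank 11 in control 3.

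**Figure D4:**
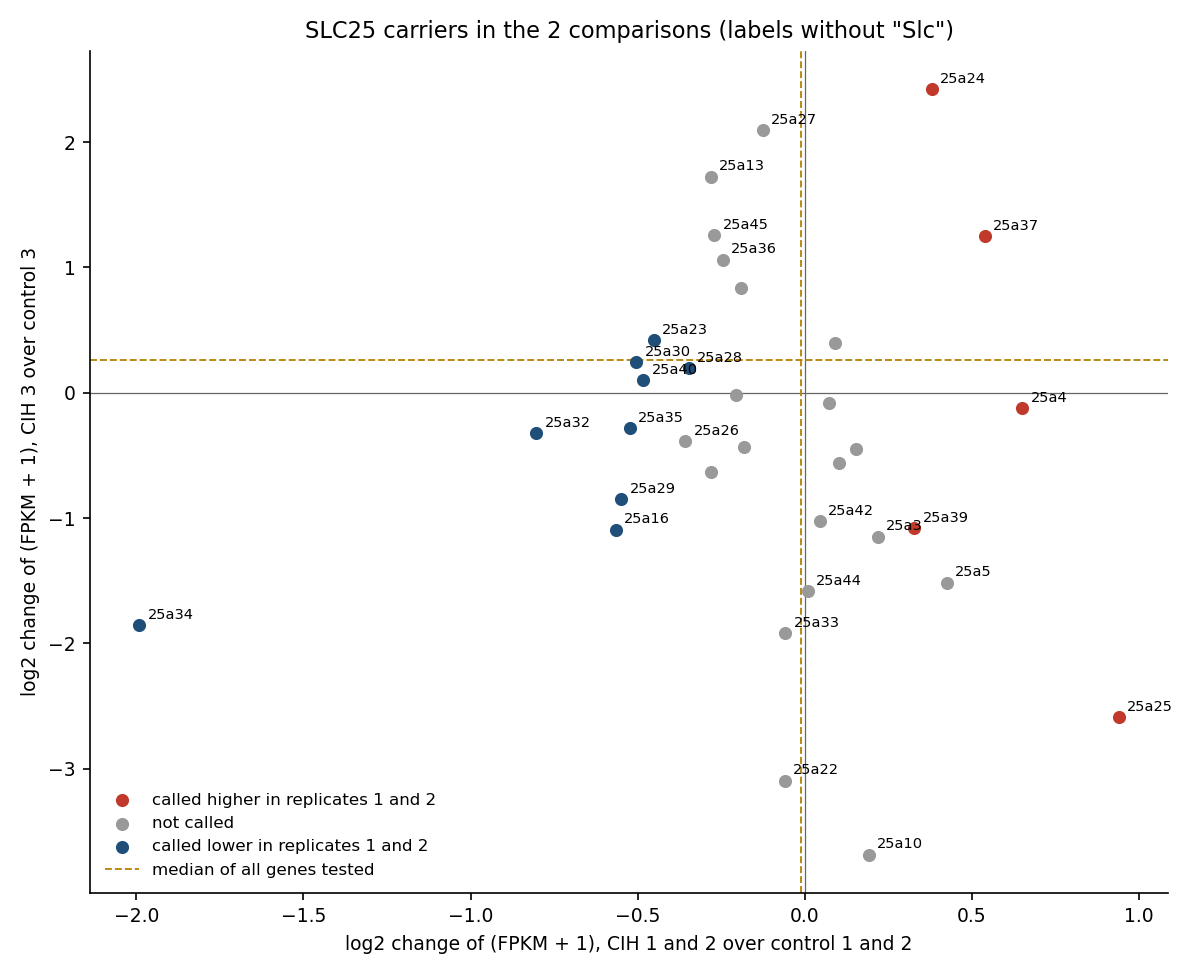
Log2 change of the tested carriers shown in replicates 1 and 2 (horizontal) against the log2 difference of CIH 3 over control 3 (vertical), both on FPKM + 1; dashed lines mark the medians of all genes (-0.01 and 0.26). Slc25a34 lies low on both axes, Slc25a37 and Slc25a24 high on both, and Slc25a25 at 0.94 and -2.59.

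Set side by side, the comparisons gave the same direction for some carriers and not for others. Of the 5 carriers that rose in replicates 1 and 2, 2 were higher in CIH 3 (both at least 2-fold) and 3 were lower (2 of them at least 2-fold). Of the 9 that fell, 5 were lower in CIH 3 (2 at least 2-fold) and 4 were higher (none by 2-fold). The values of the other called carriers in replicate 3 were as follows. Slc25a32 had 11.9 FPKM in CIH 3 against 15.1 in control 3, Slc25a35 had 4.20 against 5.32 and Slc25a29 had 1.68 against 3.83. Slc25a30 had 11.2 FPKM in CIH 3 against 9.26 in control 3, Slc25a40 had 8.38 against 7.76, Slc25a23 had 5.40 against 3.79 and Slc25a28 had 9.08 against 7.79.

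The transcript tables split 22 of the 45 members into several entries. Of the 19 such members that were tested, 17 had the same highest entry in CIH 3 and control 3, and 11 had entries in both directions. Slc25a51 was an exception. Of its 5 entries, entry 3 had 0.0780 FPKM in CIH 3 against 37.4 in control 3, while entry 5 had 30.2 FPKM in CIH 3 against 6.41 in control 3, and the sum differed by 1.35-fold.

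The 10 carriers that were not tested averaged under 1 FPKM over the 6 libraries. Slc25a18, a glutamate carrier, had 0.200 and 0.191 FPKM in CIH 1 and 2, against 0.0407 and 0.0374 in control 1 and 2, which is 10 fragments in each CIH library and 2 in each control, and 1.86 FPKM in CIH 3, against 1.09 in control 3. Slc25a53 had between 0.502 and 0.581 FPKM in these 4 libraries, with 2.06 FPKM in CIH 3 against 0.896 in control 3, and Slc25a47 between 0.307 and 0.443. Slc25a2 and Slc25a41 stayed under 0.1 FPKM there. Slc25a43 was listed at 0 in all 6 libraries, and Slc25a21, Slc25a31, Slc25a48 and Slc25a54 in at least 4. Low members lay beside expressed ones. Slc25a47 lies 162 bases from Slc25a29 on the opposite strand of chromosome 12, Slc25a41 lies 2056 bases from Slc25a23, Slc25a54 lies 6461 bases from Slc25a24 and Slc25a43 lies 18448 bases from Slc25a5.

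Other genes of the pathway were read as lists. In replicates 1 and 2, 9 of the 16 carrier import genes rose, none fell, and the median log2 change was 0.36, beside 18.2% of all genes higher and a median of -0.01. Timm8b, a small chaperone between the membranes, had 171 and 157 FPKM in CIH 1 and 2, against 88.5 and 96.8 in control 1 and 2 (log2 change 0.82, adjusted p = 0.00391 by limma). Tomm5, a small TOM subunit, had 119 and 95.6 FPKM in CIH 1 and 2, against 50.5 and 60.0 in control 1 and 2 (0.94, adjusted p = 0.00824). Timm22, the channel that inserts the carriers, had 34.5 and 30.2 FPKM in CIH 1 and 2, against 24.0 and 23.6 in control 1 and 2 (0.42, adjusted p = 0.0192). No groups overlapped in these 3 genes. By limma at an unadjusted p under 0.05, 10 were higher and 0 lower. The call of Timm22 was lost without CIH 1 (adjusted p = 0.0861 by limma). The count of genes that rose was lower without CIH 1, without CIH 2 and without control 1, where fewer of all genes rose too. It stayed the same without control 2, where fewer of all genes rose as well. With scaling to a common total the count was 6, beside 1368 of all 10976 genes. It was 0 with no filter on low values (8 higher and 0 lower by limma at an unadjusted p under 0.05) and 0 in each of the 3 fits of all 6 libraries (0 and 0). Few of all genes rose there too, 590 of 21769 with no filter and at most 20 of 10976 in these fits. In the replicate 3 pair 10 of the 16 were at least 2-fold lower and 0 higher, beside 11.8% and 21.8% of all genes. Among these 10, Tomm6 had at most 0.129 FPKM in replicates 1 and 2, against 201 in control 3. It passed the filter on low values only through replicate 3, so its place in this count says nothing.

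Of 20 other mitochondrial transporters tested, 4 rose and 5 fell, with a median log2 change of 0.08, which is near the shares of all genes (18.2% higher and 20.9% lower). Mpc2, a subunit of the pyruvate carrier, rose (0.63, adjusted p = 0.0108 by limma), and so did Smdt1, a subunit of the calcium uniporter (0.81, adjusted p = 0.0166). Sfxn1, a serine transporter, fell by 0.63 (adjusted p = 0.00735 by limma), and Slc8b1, the sodium/calcium exchanger, fell by 0.66 (adjusted p = 0.0217). The calls of Mpc2, Smdt1 and Slc8b1 were lost without CIH 1 (adjusted p = 0.0596, 0.0794 and 0.0794 by limma), and that of Slc8b1 also without CIH 2 (0.0919). With each library left out in turn, fewer genes of the list were called, and fewer of all genes too. In CIH 3, 7 were at least 2-fold lower and 1 at least 2-fold higher than in control 3, beside 11.8% and 21.8% of all genes. Among these 7, Abcb6 had at most 0.870 FPKM in replicates 1 and 2, against 16.5 in control 3. It passed the filter on low values only through replicate 3, so its place in this count says nothing. Sfxn5, among the 4 that rose, also passed only through replicate 3. With the filter over the 4 libraries of replicates 1 and 2, 3 of 18 rose and 5 fell. Of 7 family genes outside the members, 6 were tested, and 1 rose and 2 fell, beside 18.2% of all genes higher and 20.9% lower. The carnitine carrier Slc25a20 rose (0.56, adjusted p = 0.0180 by limma), a call lost without CIH 1 (0.0866). Ucp3, an uncoupling protein, had 0.512 and 0.616 FPKM in CIH 1 and 2, against 2.33 and 2.18 in control 1 and 2, and fell by 1.06 on the log2 scale (adjusted p = 0.00115 by limma). The citrate carrier Slc25a1 fell by 0.88 (adjusted p = 0.00420 by limma). In the replicate 3 pair 5 of these 6 family genes were at least 2-fold lower and 0 higher, beside 11.8% and 21.8% of all genes. Slc25a20 thus ran the other way there, with 8.04 FPKM in CIH 3 against 39.0 in control 3.

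Among 12 tested regulators of mitochondrial biogenesis, 3 rose and 3 fell, with a median log2 change of 0.01, beside 18.2% of all genes higher and 20.9% lower. Myc, Pprc1 and Nrf1 rose (0.81, 0.48 and 0.45, with adjusted p = 0.00267, 0.0148 and 0.0144 by limma). In the replicate 3 pair Myc ran the other way, with 9.27 FPKM in CIH 3 against 19.9 in control 3. Pprc1 had 12.4 FPKM in CIH 3 against 9.12 in control 3, and Nrf1 had 14.0 against 10.1. Of the 12 regulators, 4 were at least 2-fold lower in CIH 3 and 0 higher, beside 11.8% and 21.8% of all genes. Ppargc1b, a coactivator of respiratory genes, had 8.43 and 10.6 FPKM in CIH 1 and 2, against 18.6 and 16.2 in control 1 and 2, and 3.10 FPKM in CIH 3, against 27.6 in control 3. It fell by 0.81 on the log2 scale (adjusted p = 0.00982 by limma). Gabpa fell by 0.41 and Yy1 by 0.24 (adjusted p = 0.0331 and 0.0440 by limma), and Ppargc1a was not called (log2 change 0.02). With each library left out in turn, fewer genes of the list were called, and fewer of all genes too. Without CIH 1 or without CIH 2 only Myc and Ppargc1b kept their calls. The calls of Nrf1 and Pprc1 were thus lost without CIH 1 (0.0831 and 0.0545) or CIH 2 (0.0560 and 0.0805). The Gabpa call was lost without control 1 (0.0861), CIH 1 (0.124) or CIH 2 (0.123), and the Yy1 call without each library in turn (0.0891 to 0.200).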

How the data were processed

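RNA-seq was deposited by the authors as FPKM per gene for CIH 1 and 2 and control 1 and 2, and per transcript entry for CIH 3 and control 3. The unit was read from the values, since the headers give only sample names: in the gene tables FPKM times exon length came in whole fragments for 98.4% to 98.6% of genes under 50 fragments (within 0.05). The submitters' processing notes name GRCm38, featureCounts 1.5.0-p3 and also DESeq 1.8.3, with no role for any of them, and name no aligner. Repeated IDs were summed. Genes whose 6 libraries averaged 1 FPKM or more (10976) were fitted as log2(FPKM + 1) in R 4.3.3 with limma 3.58.1 and its trended empirical Bayes step, CIH 1 and 2 against control 1 and 2, and called at an adjusted p under 0.05; the replicate 3 pair got no test and a 2-fold threshold. The fit was tested on simulated data. Named carriers were the called ones, up to 10 each way, and the 6 with the highest control level. Shared sequence was counted in 50-base words of a carrier's annotated transcripts that also occur, on either strand, in transcripts of other genes. CIH 1 and CIH 2 differed by more than sampling noise (mean chi-square 10.3 over 12762 genes with at least 40 fragments summed), as did control 1 and control 2 (15.2 over 12704). The members, role groups, gene lists and tests were chosen with earlier results of these data known. 1 member is counted but not reported by name here.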

Additional observations from a re-analysis of the deposited data

How the results depend on the processing

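Counts of carriers called in replicates 1 and 2 (5 higher and 9 lower) moved to 3 and 3 with no filter on low values. Over all genes that setting gave 590 and 806 of 21769. Scaling to a common total, which shifts the median of all genes to -0.11, gave 3 and 13, beside 1368 and 3149 of 10976. With each library left out in turn, fewer carriers were called. Fits of all 6 libraries gave 0 and 0 with the group alone, 0 and 1 with a term for replicate 3 (Slc25a34, adjusted p = 0.0307 by limma) and 0 and 0 with a replicate block; at an unadjusted p under 0.05 they had 0 and 1, 1 and 6, and 1 and 4. In all 3 of these fits Slc25a25 (-0.24), Slc25a39 (-0.14), Slc25a5 (-0.22), Slc25a10 (-1.10), Slc25a3 (-0.24) and Slc25a11 (-0.12) turned downward on the log2 scale; Slc25a11 was also at -0.027 with scaling to a common total. The other 5 settings of the 2 against 2 fit that keep all libraries and use no block gave 4 to 7 higher and 9 to 12 lower. Over all genes these 5 settings gave 1849 to 2314 higher and 2034 to 2634 lower. The filter over the 4 libraries of replicates 1 and 2 left 9845 genes in place of 10976. Over all genes the fits of all 6 libraries called at most 20 higher and 43 lower of 10976.

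The same replicate number is all that links a CIH library to a control, and deviations of CIH 1 and control 1 from their group means correlated at -0.18 across 10976 genes. A replicate block in replicates 1 and 2 gave 3 carriers higher and 7 lower, beside 1556 and 1776 of all 10976 genes. The crossed pairing, chosen after seeing the data, gave 6 and 10. No count over all genes is given for the crossed pairing, so these numbers cannot be set beside a share of all genes.

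Over the 4 other lists together, 17 genes were higher and 10 lower of 54 tested, beside 18.2% and 20.9% of all genes. Without the filter the counts were 1 and 1 of 57, beside 590 and 806 of all 21769 genes. Scaling to a common total gave 12 and 11, beside 1368 and 3149 of 10976. Each of the 3 fits of all 6 libraries gave 0 and 0, beside at most 20 and 43 of 10976. At an unadjusted p under 0.05 by limma these fits had 0 and 4, 2 and 6, and 2 and 5. The counts were 4 to 16 higher and 4 to 8 lower with each library left out, where fewer of all genes were called too.

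In the replicate 3 pair (6 higher and 12 lower), scaling to a common total gave 7 and 6, beside 4642 and 671 of 10976 genes. It turned Slc25a4 (0.50), Slc25a32 (0.26), Slc25a35 (0.24) and Slc25a11 (0.054) upward. A total without mitochondrial-encoded genes put Slc25a4 at 0.043 and gave 6 and 8, beside 2874 and 1077 of all genes. The median of ratios put Slc25a30 at -0.020, Slc25a40 at -0.16 and Slc25a28 at -0.061, and taking only the highest entry put Slc25a40 at -0.12. The causes were not tested. Depth is unknown in replicate 3, and 1 library per group gives it no error; in replicates 1 and 2, 2 libraries per group leave 2 residual degrees of freedom before the shared estimate of spread.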
